A study of Mus musculus with 12 samples.

Results

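The genes described here are 48 mouse interferon-stimulated genes, the antiviral and signalling genes that cells switch on when interferon binds its receptor. They were picked by symbol and all 48 were found, each once, among the 34745 genes of the expression table. By role they comprise 2 receptor subunits, 4 transcription factors, 5 sensors of RNA or DNA, 4 members of the IFIT family, 6 of the OAS family, 5 GTPases, 5 members of the ISG15 and ubiquitin system, 5 genes of PARP proteins and their partner DTX3L, and 12 other effectors. Gene expression was measured by poly(A) RNA-seq in 12 libraries of MLE-12, an immortalised mouse lung line with features of the alveolar type II (AT II) cell, the surfactant-making cell of the alveolus. The 4 groups of 3 libraries are cell models of bronchopulmonary dysplasia, the chronic lung disease of preterm infants, and all carry a 24 h label. The LPS group received 100 ng/mL lipopolysaccharide, a bacterial cell wall component, at 21% oxygen, and the Hyp group was kept in 85% oxygen without LPS. The LPS + M2-Exo and Hyp + M2-Exo groups had the same injury, after which exosomes of M2-polarised macrophages (M2-Exo, 10 µg/mL) were added, vesicles that in this study came from the mouse alveolar macrophage line MH-S treated with interleukin 4. No library of uninjured cells was analysed here, so each level is read against another injured group, and a single cell line stands for the AT II cell.

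Type I interferons bind a receptor of 2 chains, encoded by Ifnar1 and Ifnar2, and kinases on that receptor phosphorylate STAT2. This joins IRF9 in ISGF3, a transcription factor complex that binds the interferon-stimulated response element (ISRE) in the promoters of many antiviral genes. LPS can start the same programme through Toll-like receptor 4 and the adaptor TRIF, which lead to interferon beta, and in airway and alveolar epithelium the programme is known as a barrier to viral infection.

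Promoter sequence was available for 36 of the 48 genes, as RefSeq windows of 300 bases from 250 before to 50 after a transcription start (build GRCm38.p6). The core of the ISRE, taken as GAAA, any 2 bases and GAAA again on either strand, was found in a window of 17 of these 36 genes (47.2%), against 3.99% of 27025 genes with a window. The longer form, in which CT follows the core, was found in 11 of 36 (30.6%) against 0.303% of all. The NF-kB form, GGGA and TTCC with any 2 bases between, was found in 3 of 36 (8.33%) against 1.63%. The last 200 bases before the start are shown for 6 genes that span the responses described below, 5 that were higher in LPS and Rsad2, which was not, with every ISRE core match in capitals, merged where matches overlap. Isg15, encoding a ubiquitin-like protein that is coupled to other proteins, is read at chr4:156200819-156201018 (minus strand) and has 3 overlapping matches, which begin 78, 72 and 66 bases before the start. Ifit1, encoding a protein that binds foreign RNA caps, is read at chr19:34640689-34640888 (plus strand), with matches beginning 104 and 85 bases before it. Ifit3 is read at chr19:34583329-34583528 (plus strand) and its near-copy Ifit3b at chr19:34607757-34607956 (plus strand), and Gbp3, a guanylate-binding GTPase, at chr3:142559844-142560043 (plus strand). Rsad2, encoding viperin, an enzyme that makes a chain-terminating nucleotide, is read at chr12:26456453-26456652 (minus strand) and has 1 match, 120 bases before the start.
Isg15: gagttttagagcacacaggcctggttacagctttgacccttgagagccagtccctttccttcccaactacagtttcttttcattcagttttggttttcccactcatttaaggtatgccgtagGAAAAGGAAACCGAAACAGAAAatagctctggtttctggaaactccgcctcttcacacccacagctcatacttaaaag
Ifit1: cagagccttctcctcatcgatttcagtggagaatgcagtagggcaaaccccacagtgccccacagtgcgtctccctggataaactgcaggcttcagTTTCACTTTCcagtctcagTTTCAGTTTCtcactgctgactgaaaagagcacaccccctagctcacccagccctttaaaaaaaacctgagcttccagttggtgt
Ifit3: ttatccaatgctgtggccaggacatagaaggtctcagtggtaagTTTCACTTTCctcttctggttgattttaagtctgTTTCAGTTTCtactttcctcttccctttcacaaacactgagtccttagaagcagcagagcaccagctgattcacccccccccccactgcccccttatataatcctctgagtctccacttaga
Ifit3b: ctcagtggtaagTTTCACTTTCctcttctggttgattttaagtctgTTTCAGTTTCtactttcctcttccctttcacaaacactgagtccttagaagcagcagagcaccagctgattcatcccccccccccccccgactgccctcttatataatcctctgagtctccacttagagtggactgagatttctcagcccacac
Gbp3: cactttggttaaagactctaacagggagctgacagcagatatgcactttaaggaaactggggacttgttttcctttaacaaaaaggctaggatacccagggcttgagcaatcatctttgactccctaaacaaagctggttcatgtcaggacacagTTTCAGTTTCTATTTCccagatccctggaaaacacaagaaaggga
Rsad2: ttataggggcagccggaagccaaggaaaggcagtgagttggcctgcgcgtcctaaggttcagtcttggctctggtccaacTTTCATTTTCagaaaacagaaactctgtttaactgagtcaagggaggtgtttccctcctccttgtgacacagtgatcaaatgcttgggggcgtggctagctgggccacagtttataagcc
The Ifit3 and Ifit3b windows are identical at 259 of 296 aligned positions (87.5%), and the bases after the start listed for Ifit3b are in no GENCODE M21 transcript of that gene. A match is a description of these letters and not evidence of binding, and a window without one says only that the letters are not in it.

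The libraries held 16021833 to 24074616 counts assigned to genes, and 42 of the 48 genes had at least 10 counts in every library. Of 17 lung epithelial markers, 9 had more than 10 counts in every library, among them Nkx2-1, Krt8 and Abca3, while Sftpa1, Sftpd, Krt18 and Cldn18 stayed at or under 10 counts. Of the AT II cell's surfactant protein genes, Sftpc (240 to 433 counts) and Sftpb (23 to 122 counts) were thus detected in every library, and Sftpa1 and Sftpd had at most 1 count in any. Of 12 fibroblast and endothelial markers, 5 had more than 10 counts in every library, among them Dcn with 7196 to 14843 counts. The first LPS library stood apart. It had the highest level of its group for 41 of the 47 members that could be tested over 12 libraries (87.2%), against 32.2% of the 14187 genes tested, and lay a median of 0.35 log2 units above the other LPS libraries for the members and -0.0056 for all genes. The median difference was 0.76 for the 10 members with a mean under 1 FPKM (fragments scaled to transcript length and library size), 0.36 for the 26 between 1 and 10 and 0.16 for the 12 above that. Among genes of other lists it was the highest LPS library for 44 of 66 further interferon-stimulated genes (66.7%), but for 4 of 18 NF-kB targets and 3 of 16 macrophage markers. The main counts and medians over the members that include the LPS group are therefore given with and without it, as are the values of some single genes. Other values of that group include it. Levels are given below as CPM, counts scaled to library size by the TMM method, and as FPKM where genes are compared with each other.

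**Figure D1:**
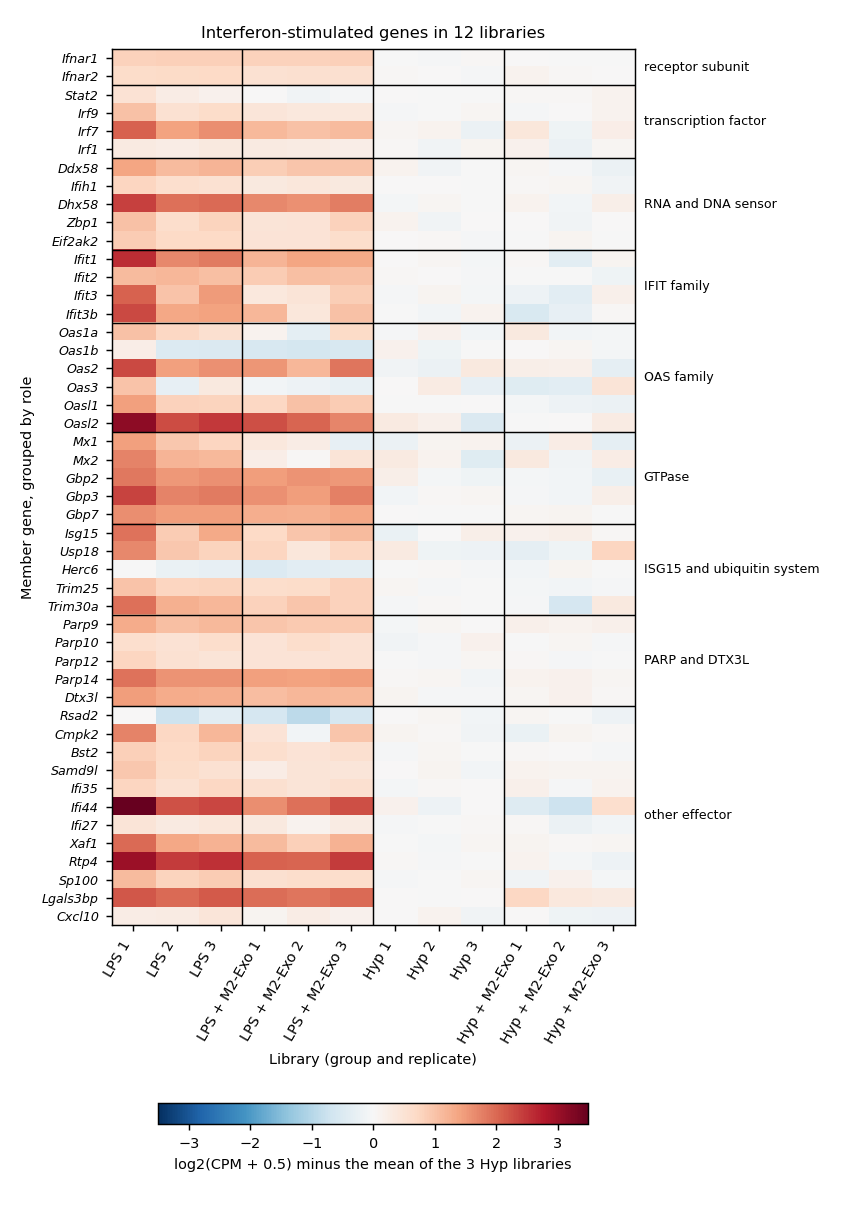
Level of the 48 interferon-stimulated genes (vertical axis, grouped by role) in the 12 libraries (horizontal axis), coloured by log2(CPM + 0.5) minus the mean of the 3 Hyp libraries. Most genes are redder in the 6 LPS and LPS + M2-Exo columns than in the 6 hyperoxia columns, the first LPS column is the darkest, and Herc6, Oas1b and Rsad2 are pale or blue in LPS.

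Compared per length of transcript, the genes spanned a wide range of levels. Bst2, encoding tetherin, which holds budding virus at the cell surface, was the highest at 278 ± 15.9 FPKM in LPS and 173 ± 8.11 in Hyp (mean ± SD, n = 3). It was followed, on the mean over 12 libraries, by Trim25 at 30.1, Ifi27 at 19.9, Lgals3bp at 17.7, Parp12 at 17.1 and Eif2ak2 at 16.5 FPKM. Next came Isg15 at 16.04, Ifi35 at 15.96, Ifnar1 at 15.6, Stat2 at 13.3 and Ifit2 at 12.0 FPKM. The OAS family was low, its highest member Oasl2 reaching 2.20 FPKM, and the sensor Zbp1 was the lowest of all, at 0.04 FPKM with 0 to 11 counts per library.

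The question of LPS against Hyp is how the inflammatory and the oxygen injury differ in this programme. Of the 47 members tested, 43 (91.5%) were higher in LPS and 0 lower at an adjusted p under 0.05 (edgeR quasi-likelihood test with Benjamini-Hochberg adjustment over all genes), where 75.8% of the 13805 genes tested were called, 37.8% higher and 38% lower. The median log2 fold change of the members was 1.17, beside -0.0091 for all genes tested, and in the same 43 genes every LPS library lay above every Hyp library, as it did for 38.9% of all genes. Without the first LPS library 43 were again higher and 3 lower, with a median of 1.10, and 43 again lay above every Hyp library. The differences of those 43 then ran from 0.22 (Stat2) to 2.92 (Ifi44). Of the 14181 genes tested without that library, 5138 were higher and 5163 lower. With fewer LPS libraries, lying above every Hyp library is an easier condition, and no share over all genes is given for it. Zbp1 was removed by the low-count filter, and Ifit3b, Oas2 and Mx1 passed it through their LPS libraries, so they had to differ to be tested; with no filter 44 of all 48 were higher. The 2 groups differ in LPS and in oxygen together, and any batch between the models cannot be told apart from the injury. The labels do not say whether the 3 libraries of a group came from separate cultures, so p-values measure the spread between these libraries only. In bulk RNA, moreover, fewer cells that make a transcript and less of it per cell cannot be told apart.

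Macrophage markers moved with the same contrast. Of 20 markers 16 were tested, 14 were higher in LPS and 1 (Itgax) lower, and together they reached 546 to 607 CPM in LPS, 419 to 486 in LPS + M2-Exo, 132 to 139 in Hyp and 102 to 152 in Hyp + M2-Exo. Marco had 57, 72 and 80 counts in LPS and 0, 0 and 1 in Hyp, and Itgax 0, 3 and 0 against 13, 22 and 30. Each passed the low-count filter through a single group, so it had to differ to be tested. Ptprc, Adgre1, Csf1r and Lyz2 were detected in every library, whereas Chil3 and Ear2 were at 0 in all 12. Their part in the difference of the interferon-stimulated genes was not tested.

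**Figure D2:**
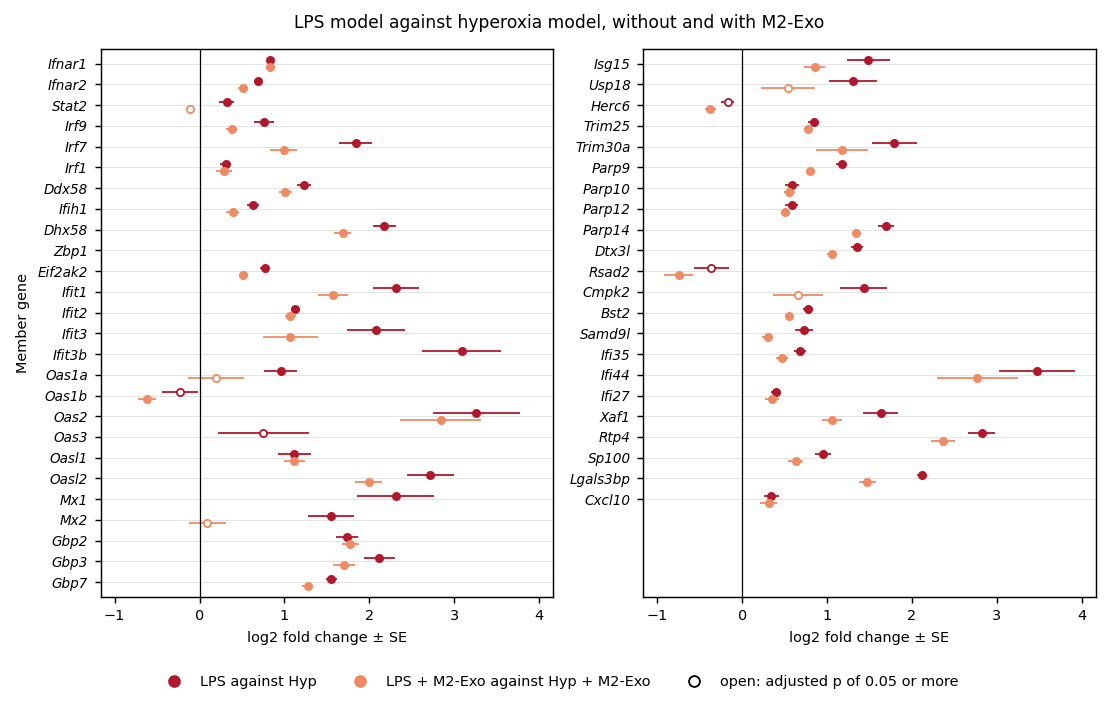
Log2 fold change (horizontal axis) with its standard error of each tested interferon-stimulated gene, ordered by role (vertical axis), for LPS against Hyp and for LPS + M2-Exo against Hyp + M2-Exo, filled where the adjusted p was under 0.05. In LPS against Hyp 43 of 47 genes lie right of 0 and pass, while Herc6, Oas1b and Rsad2 lie left of 0.

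Both receptor subunits were higher in LPS. Ifnar1 (chromosome 16, 91485238 to 91507441) had 195, 197 and 197 CPM in the LPS libraries, 193, 193 and 198 in LPS + M2-Exo, 110.0, 108 and 114 in Hyp and 111, 111 and 110.4 in Hyp + M2-Exo. The 6 libraries with LPS lay well above the 6 in hyperoxia, with a spread of a few CPM within each group, and the libraries with and without M2-Exo lay close together. In LPS against Hyp the difference was 1.78-fold (log2 fold change 0.83 ± 0.033 (SE), adjusted p = 2.32e-07). Ifnar2 had 50.8, 51.7 and 52.7 CPM in the LPS libraries, 47.2, 47.6 and 47.7 in LPS + M2-Exo, 32.9, 32.3 and 31.4 in Hyp and 35.3, 33.0 and 32.8 in Hyp + M2-Exo, again without overlap between the injuries, and rose by less (log2 fold change 0.69 ± 0.048 (SE), adjusted p = 4.35e-06).

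The 4 transcription factors were all higher in LPS, with very different sizes. Irf7, the regulator of the interferon alpha genes, had 19.0, 11.9 and 13.8 CPM in the LPS libraries, 9.62, 8.99 and 9.42 in LPS + M2-Exo, 4.40, 4.59 and 3.51 in Hyp and 5.58, 3.71 and 4.94 in Hyp + M2-Exo. Every library with LPS lay above every hyperoxia library, and the first LPS library was the highest (LPS against Hyp, log2 fold change 1.84 ± 0.19 (SE), adjusted p = 5.06e-05). Irf9 and Irf1 rose by 0.76 and 0.31 on the log2 scale. Stat2, part of ISGF3, had 79.6, 67.7 and 61.9 CPM in the LPS libraries, 56.8, 51.5 and 54.3 in LPS + M2-Exo, 57.0, 55.4 and 55.8 in Hyp and 57.7, 57.4 and 61.6 in Hyp + M2-Exo. Its LPS libraries were above those in Hyp by a small margin (log2 fold change 0.32 ± 0.086 (SE), adjusted p = 0.00986), while its LPS + M2-Exo libraries lay at or under the Hyp level. Irf7 overlaps Phrf1 on the opposite strand, a gene with far more counts, and without strand the reads of such partners cannot be told apart.

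The sensors of viral nucleic acid rose in LPS where they could be tested. Dhx58 (LGP2), a regulator of the RNA sensors, had 46.4, 33.2 and 34.3 CPM in the LPS libraries, 28.3, 26.3 and 30.4 in LPS + M2-Exo, 8.02, 8.79 and 8.38 in Hyp and 9.16, 7.82 and 9.69 in Hyp + M2-Exo. Its lowest LPS library was above every hyperoxia library, and it had the largest change of the group (log2 fold change 2.18 ± 0.14 (SE), adjusted p = 2.47e-06). Eif2ak2, encoding the kinase PKR that stops translation on double-stranded RNA, had 139.9, 122 and 123 CPM in the LPS libraries, 105, 105 and 116 in LPS + M2-Exo, 76.0, 77.5 and 72.8 in Hyp and 74.2, 81.1 and 74.5 in Hyp + M2-Exo. Its LPS libraries did not overlap the hyperoxia libraries either (log2 fold change 0.77 ± 0.059 (SE), adjusted p = 7.95e-06). Ddx58 (RIG-I) rose by 1.23 and Ifih1 (MDA5) by 0.63 on the log2 scale, and Zbp1, with 11, 6 and 8 counts in LPS and 2, 0 and 1 in Hyp, was not tested.

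The IFIT genes, whose proteins bind viral RNA, had some of the largest changes. Ifit2 had 75.4, 78.1 and 72.5 CPM in the LPS libraries, 64.3, 71.9 and 70.6 in LPS + M2-Exo, 35.4, 34.9 and 33.2 in Hyp and 34.2, 34.0 and 31.1 in Hyp + M2-Exo, and here the first LPS library lay between the others (log2 fold change 1.13 ± 0.051 (SE), adjusted p = 4.23e-07). Ifit1, whose promoter carries the paired ISRE matches shown above, had 15.3, 8.03 and 8.86 CPM in LPS against 2.16, 2.30 and 2.02 in Hyp (log2 fold change 2.32 ± 0.27 (SE), adjusted p = 9.03e-05), with a log2 fold change of 1.98 without the first LPS library. Ifit3 had 4.83, 2.05 and 3.097 CPM in the LPS libraries, 1.16, 1.27 and 1.85 in LPS + M2-Exo, 0.748, 0.883 and 0.726 in Hyp and 0.625, 0.491 and 0.959 in Hyp + M2-Exo. Its LPS libraries were all above Hyp but spread widely (log2 fold change 2.08 ± 0.34 (SE), adjusted p = 0.000716). Ifit3b was a low gene with 56, 25 and 26 counts in LPS, 18, 7 and 17 in LPS + M2-Exo, 5, 4 and 7 in Hyp and 0, 2 and 5 in Hyp + M2-Exo (log2 fold change 3.09 ± 0.47 (SE), adjusted p = 0.000439). Ifit3 shares 51.2% of its 50-base stretches with other genes, chiefly Ifit3b, 19238 bases away on chromosome 19, so the split of reads between these copies is uncertain.

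**Figure D3:**
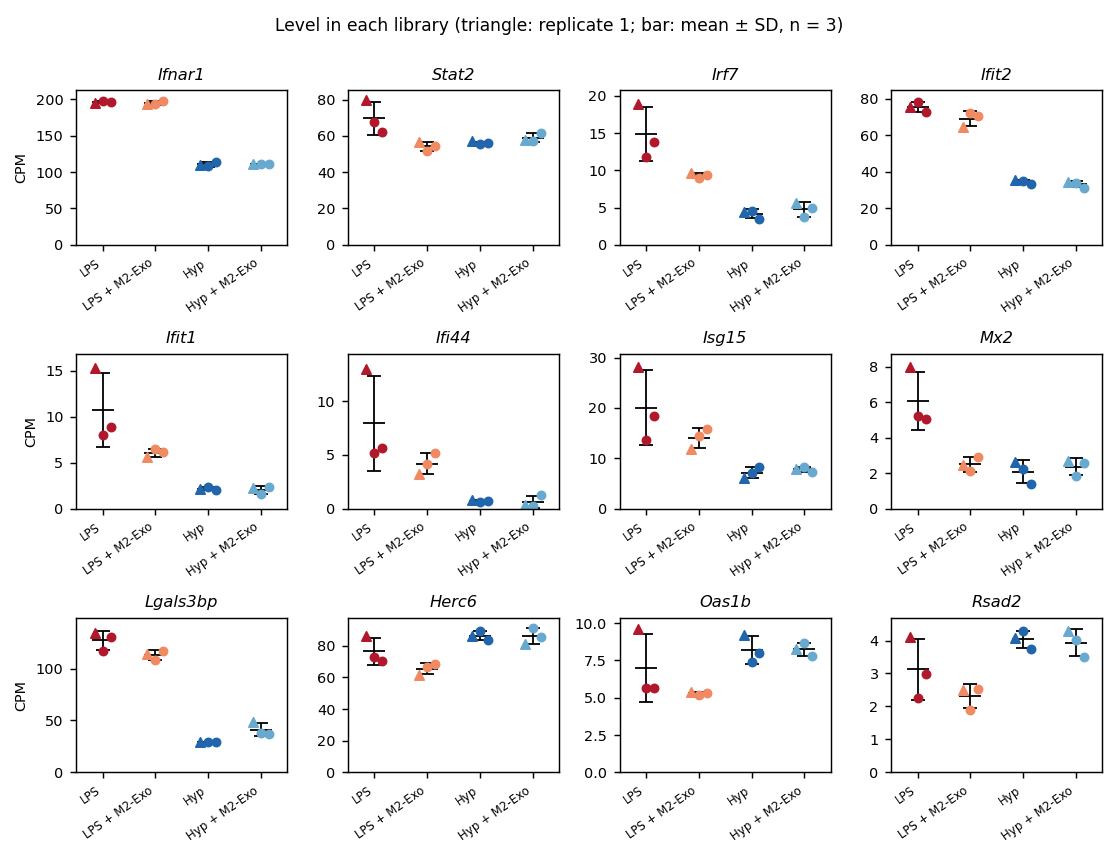
Level in CPM (vertical axis) of 12 interferon-stimulated genes in each library of the 4 groups (horizontal axis), with the mean ± SD of 3 libraries as bars and replicate 1 as a triangle. Ifnar1, Irf7, Ifit2, Ifit1, Ifi44, Isg15 and Lgals3bp are higher with LPS than in hyperoxia in every library, while Herc6, Oas1b and Rsad2 are highest in hyperoxia or overlap.

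The OAS family, some of whose members make the 2-5A signal that activates RNase L, did not move as a unit. Oasl2, an OAS-like protein, had 67.9, 37.9 and 43.1 CPM in the LPS libraries, 36.5, 31.8 and 24.8 in LPS + M2-Exo, 9.22, 8.39 and 5.04 in Hyp and 7.29, 7.33 and 9.07 in Hyp + M2-Exo, and every library with LPS exceeded every hyperoxia library (log2 fold change 2.72 ± 0.28 (SE), adjusted p = 4.26e-05). Oas2 rose by 3.26, from 3, 2 and 9 counts in Hyp to 52, 25 and 29 in LPS, and Oasl1 by 1.12. Oas1a rose (log2 fold change 0.96 ± 0.19 (SE), adjusted p = 0.00218) but shares 57.6% of its 50-base stretches with other genes, chiefly Oas1g. Oas1b, known for flavivirus resistance in mice and 72092 bases from Oas1a on chromosome 5, had 9.60, 5.66 and 5.65 CPM in the LPS libraries, 5.39, 5.19 and 5.33 in LPS + M2-Exo, 9.18, 7.37 and 8.02 in Hyp and 8.25, 8.67 and 7.82 in Hyp + M2-Exo. Its first LPS library was the highest of all 12 and the other LPS libraries were below every Hyp library (log2 fold change -0.23 ± 0.21 (SE), adjusted p = 0.342). Oas3 had 27, 6 and 14 counts in LPS and 12, 16 and 8 in Hyp and did not pass (log2 fold change 0.75, adjusted p = 0.232), with a log2 fold change of 0.11 without the first LPS library (adjusted p = 0.857).

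All 5 GTPases were higher in LPS. Gbp2, of the guanylate-binding proteins that coat pathogen vacuoles, had 21.4, 16.98 and 18.0 CPM in the LPS libraries, 16.4, 17.7 and 16.9 in LPS + M2-Exo, 6.52, 5.34 and 5.04 in Hyp and 5.29, 5.18 and 4.56 in Hyp + M2-Exo. The injuries did not overlap and M2-Exo libraries lay beside those without (log2 fold change 1.74 ± 0.13 (SE), adjusted p = 6.56e-06). Gbp7, of the same family, had 48.3, 42.8 and 42.4 CPM in the LPS libraries, 37.2, 36.5 and 39.7 in LPS + M2-Exo, 15.5, 15.1 and 14.9 in Hyp and 16.1, 16.3 and 14.97 in Hyp + M2-Exo, again without overlap of the injuries (log2 fold change 1.56 ± 0.069 (SE), adjusted p = 3.92e-07). Gbp3 rose by 2.12. Mx1 and Mx2, dynamin-like antiviral proteins, rose by 2.31 and 1.55, Mx1 from 2, 5 and 6 counts in Hyp to 24, 15 and 12 in LPS.

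In the ISG15 and ubiquitin system 4 of 5 genes were higher in LPS. Trim25, the ubiquitin ligase that activates RIG-I, had 260.2, 220.3 and 225 CPM in the LPS libraries, 202, 205 and 230.2 in LPS + M2-Exo, 137, 127 and 130.5 in Hyp and 126, 124 and 127 in Hyp + M2-Exo and did not overlap between LPS and Hyp (log2 fold change 0.85 ± 0.065 (SE), adjusted p = 7.8e-06). Isg15 had 28.1, 13.6 and 18.5 CPM in LPS and 6.02, 7.15 and 8.30 in Hyp (log2 fold change 1.49 ± 0.26 (SE), adjusted p = 0.000947), a log2 fold change of 1.17 without the first LPS library. Trim30a rose by 1.79 and Usp18, the enzyme that removes ISG15, by 1.302. Herc6, the mouse ligase that attaches ISG15, had 86.2, 72.99 and 70.2 CPM in the LPS libraries, 61.8, 66.8 and 68.2 in LPS + M2-Exo, 86.1, 89.3 and 83.6 in Hyp and 81.4, 91.4 and 85.4 in Hyp + M2-Exo. It was the exception in this group, with LPS and Hyp overlapping through the first LPS library (log2 fold change -0.17 ± 0.077 (SE), adjusted p = 0.0728).

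The PARP genes and Dtx3l rose together. Parp14, an ADP-ribosyltransferase, had 166, 133 and 132 CPM in the LPS libraries, 119.8, 119.6 and 122 in LPS + M2-Exo, 45.4, 46.3 and 41.6 in Hyp and 48.5, 48.9 and 46.3 in Hyp + M2-Exo, and the LPS libraries were all far above the hyperoxia libraries (log2 fold change 1.69 ± 0.095 (SE), adjusted p = 1.33e-06). Parp9 had 115, 97.0 and 102 CPM in the LPS libraries, 91.2, 89.3 and 88.7 in LPS + M2-Exo, 44.8, 48.6 and 46.8 in Hyp and 52.6, 51.0 and 52.6 in Hyp + M2-Exo. Dtx3l, encoding the ubiquitin ligase that pairs with PARP9, had 112, 98.7 and 96.8 CPM in the LPS libraries, 84.8, 89.7 and 88.5 in LPS + M2-Exo, 43.0, 38.6 and 38.9 in Hyp and 41.9, 44.4 and 41.3 in Hyp + M2-Exo. Both were higher in every LPS library, by 1.17 ± 0.070 for Parp9 (adjusted p = 1.82e-06) and 1.36 ± 0.072 for Dtx3l (adjusted p = 9.79e-07). These genes overlap at their ends on opposite strands of chromosome 16, so part of their reads cannot be assigned without strand. Parp12 had 99.8, 86.1 and 81.5 CPM in the LPS libraries, 82.6, 83.9 and 84.4 in LPS + M2-Exo, 58.6, 58.2 and 62.2 in Hyp and 61.9, 57.7 and 59.2 in Hyp + M2-Exo and rose by 0.58, close to 0.59 for Parp10.

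Among the 12 other effectors 11 were higher in LPS. Lgals3bp, a secreted glycoprotein that binds galectin 3, had 134, 117 and 131 CPM in the LPS libraries, 114, 108 and 117 in LPS + M2-Exo, 29.5, 28.9 and 29.5 in Hyp and 48.4, 38.1 and 36.8 in Hyp + M2-Exo. It had the smallest adjusted p of all members (log2 fold change 2.12 ± 0.059 (SE), adjusted p = 5.41e-08), and its LPS level was 4.35 times that in Hyp. Rtp4, a chaperone of receptor transport, had 36.3, 24.7 and 27.1 CPM in the LPS libraries, 18.9, 18.6 and 24.6 in LPS + M2-Exo, 4.32, 4.02 and 4.11 in Hyp and 4.54, 3.98 and 3.65 in Hyp + M2-Exo, and no LPS library came near the hyperoxia libraries (log2 fold change 2.82 ± 0.16 (SE), adjusted p = 1.25e-06). Bst2 had 231, 207 and 219 CPM in the LPS libraries, 192, 181 and 189 in LPS + M2-Exo, 124, 136 and 126 in Hyp and 133, 131 and 125 in Hyp + M2-Exo and rose by 0.77 ± 0.051 (SE). Ifi44, an antiviral protein, had the largest log2 fold change of all members, 3.47 ± 0.45, from 20, 13 and 18 counts in Hyp to 238, 96 and 104 in LPS, and 2.92 without the first LPS library. The others rose by 1.63 for Xaf1, 1.43 for Cmpk2, 0.95 for Sp100, 0.73 for Samd9l, 0.68 for Ifi35, 0.40 for Ifi27 and 0.34 for the chemokine gene Cxcl10.

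Rsad2 was the remaining exception. It had 4.12, 2.26 and 2.99 CPM in the LPS libraries, 2.51, 1.90 and 2.52 in LPS + M2-Exo, 4.07, 4.28 and 3.75 in Hyp and 4.29, 4.02 and 3.502 in Hyp + M2-Exo, with the first LPS library inside the Hyp range and the other LPS libraries below it (log2 fold change -0.37 ± 0.21 (SE), adjusted p = 0.141). Its neighbour Cmpk2, which makes the nucleotide that viperin uses, lies 12751 bases away on the opposite strand of chromosome 12 and rose (log2 fold change 1.43 ± 0.27 (SE), adjusted p = 0.00168). Without the first LPS library Rsad2, Oas1b and Herc6 all passed as lower in LPS, by -0.61 ± 0.18 (adjusted p = 0.0177), -0.53 ± 0.13 (adjusted p = 0.00902) and -0.26 ± 0.049 (adjusted p = 0.00261). Over the genes with a promoter window, the median log2 fold change was 1.23 for the 17 with an ISRE core and 0.95 for the 19 without, and the former ranged from -0.37 (Rsad2) to 3.09 (Ifit3b). For the 11 tested genes without a window the median was 1.55. These medians include the first LPS library.

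The same contrast in cells that had received M2-Exo uses 6 other libraries. Of 44 members tested, 36 were higher in LPS + M2-Exo than in Hyp + M2-Exo and 3 lower, where 73.7% of 13660 genes were called, 36.5% higher and 37.1% lower. The median was 0.79, beside -0.0083 for all genes tested. Oas2, among those called higher, had 24, 16 and 36 counts in LPS + M2-Exo and 7, 6 and 1 in Hyp + M2-Exo. Ifi44, also called higher, had 53, 65 and 93 counts against 9, 5 and 27. Both passed the low-count filter through their LPS + M2-Exo libraries, so they had to differ to be tested. The 3 lower genes were those that stood out above, Herc6 (log2 fold change -0.38 ± 0.063 (SE), adjusted p = 0.000718), Oas1b (-0.62 ± 0.11, adjusted p = 0.00081) and Rsad2 (-0.75 ± 0.17, adjusted p = 0.00424), and here the libraries of the groups did not overlap. Rtp4 differed by 2.36, Ifnar1 by 0.83 ± 0.032, Ifit2 by 1.07 ± 0.069 and Gbp2 by 1.78 ± 0.10. Stat2 (-0.11, adjusted p = 0.135), Mx2 (0.09), Oas1a (0.19), Usp18 (0.54) and Cmpk2 (0.66) did not pass. Macrophage markers again moved with the contrast, 14 of 16 tested being higher and 1 lower, and their part was not tested. Among these markers, Marco and Itgax again passed the low-count filter through the libraries of a single injury.

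After LPS injury most members were slightly lower with M2-Exo, and no single member passed the adjusted test by edgeR. In LPS + M2-Exo against LPS, 0 of 46 members passed by edgeR, where 0.187% of 13353 genes were called. At an unadjusted p under 0.05 there were 27 members (58.7%), all lower with M2-Exo, against 11.1% of all genes in either direction and 6.1% lower. DESeq2 called 4 members, Mx2, Bst2, Stat2 and Irf7, all lower, beside 133 of 19425 genes. The log2 fold change was below 0 for 45 of 46 members (48.9% of all genes), with a median of -0.32 beside 0.0027, and for 30 members (65.2%) all M2-Exo libraries lay below all LPS libraries, as for 11.1% of all genes. Mx1 is in each of these counts of lower members. With 24, 15 and 12 counts in LPS and 6, 5 and 1 in LPS + M2-Exo, it passed the low-count filter through its LPS libraries. It therefore had to be lower to be tested. The first LPS library carried part of this: without it 42 of 46 were below 0, 19 had an unadjusted p under 0.05, the median was -0.17, and 30 again lay below the remaining LPS libraries. Of the 13522 genes then tested, 6752 were below 0 and 1216 had an unadjusted p under 0.05. With fewer LPS libraries non-overlap is an easier condition, so these 30 are not to be read against the 11.1%. Oas2, Oasl1 and Parp12 turned to 0.068, 0.11 and 0.016 without it.

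Macrophage markers moved the same way. Of 15 tested, 14 were below 0 and 11 had an unadjusted p under 0.05, with a median of -0.34, and 0 passed the adjusted test by edgeR. Without the first LPS library 14 were again below 0, with a median of -0.33. Together they lay below the LPS range of 546 to 607 CPM in each LPS + M2-Exo library, at 419 to 486 CPM, with Chil3 and Ear2 again at 0. Their part in the lower level of the interferon-stimulated genes was not tested. The summed level of the members themselves was 2362 to 2810 CPM in LPS and 2138 to 2225 in LPS + M2-Exo, against 1320 to 1335 in Hyp and 1339 to 1376 in Hyp + M2-Exo.

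**Figure D4:**
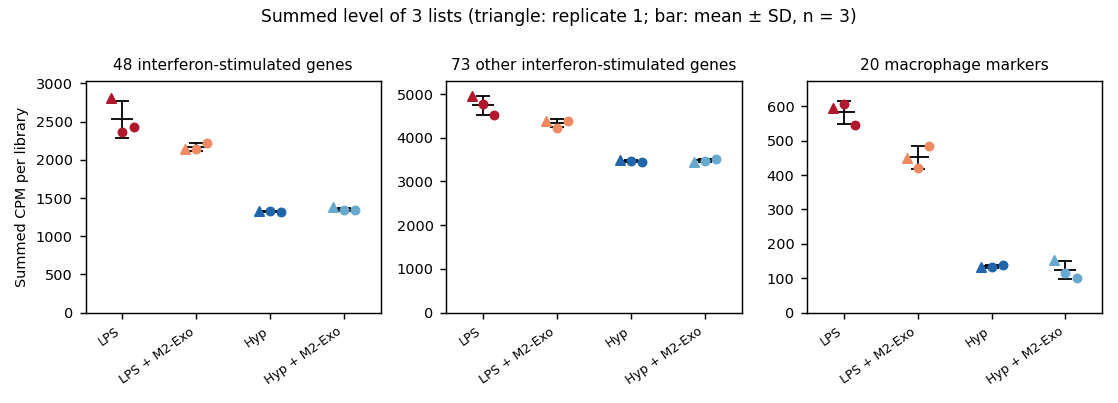
Summed level in CPM (vertical axis) of the 48 interferon-stimulated genes, of 73 further interferon-stimulated genes and of 20 macrophage markers in each library of the 4 groups (horizontal axis), with replicate 1 as a triangle and bars for the mean ± SD of 3 libraries. The 48 genes sum to 2362 to 2810 in LPS and 2138 to 2225 in LPS + M2-Exo, and the macrophage markers to 546 to 607 and 419 to 486.

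Mx2 had the lowest adjusted p of the members. It had 7.96, 5.23 and 5.05 CPM in the LPS libraries, 2.45, 2.09 and 2.92 in LPS + M2-Exo, 2.62, 2.25 and 1.37 in Hyp and 2.71, 1.83 and 2.54 in Hyp + M2-Exo, so that with M2-Exo it lay close to the hyperoxia groups and below every LPS library (log2 fold change -1.26 ± 0.23 (SE), adjusted p = 0.138, by edgeR). By DESeq2 the same change was -1.27 (adjusted p = 0.0022). Bst2, at the levels given above, was lower in all 3 M2-Exo libraries (log2 fold change -0.21 ± 0.047, adjusted p = 0.204 by edgeR and 0.0331 by DESeq2). Stat2 (-0.35 ± 0.093, adjusted p = 0.253 and 0.0426) and Irf7 (-0.65 ± 0.17, adjusted p = 0.249 and 0.0489) did not overlap either. Ifit3 (-1.19 ± 0.35, adjusted p = 0.296) and Ifit1 (-0.80 ± 0.25, adjusted p = 0.308) had larger differences with larger errors, and Mx1, with 6, 5 and 1 counts, did not pass. Without the first LPS library these differences were -1.02 for Mx2, -0.17 for Bst2, -0.24 for Stat2, -0.44 for Irf7, -0.82 for Ifit3 and -0.46 for Ifit1.

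Other members had differences near 0. Ifnar1 had a log2 fold change of 0.01 ± 0.029, Irf1 of -0.01 ± 0.049, Parp10 of -0.03 ± 0.062 and Gbp2 of -0.13 ± 0.10. By role, the median was -0.05 for the receptor subunits, -0.35 for the transcription factors, -0.25 for the sensors, -0.996 for the IFIT genes, -0.38 for the OAS family, -0.38 for the GTPases, -0.50 for the ISG15 and ubiquitin system, -0.21 for the PARP genes and -0.32 for the other effectors. Without the first LPS library the medians were, in the same order, -0.06, -0.21, -0.18, -0.58, -0.07, -0.16, -0.18, -0.11 and -0.18.

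In hyperoxia the members showed no common direction with M2-Exo. In Hyp + M2-Exo against Hyp, 0 of 44 members passed by edgeR, where 0.101% of 13815 genes were called, while 2 members (4.55%) and 8.48% of all genes reached p under 0.05 before adjustment. The log2 fold change was below 0 for 18 of 44 members and 50.7% of all genes, and the median was 0.01. The largest was Lgals3bp, with 29.5, 28.9 and 29.5 CPM in Hyp and 48.4, 38.1 and 36.8 in Hyp + M2-Exo, so that all M2-Exo libraries were above all Hyp libraries but the first stood higher than the others (log2 fold change 0.49 ± 0.10 (SE), adjusted p = 0.419 by edgeR). Of the members DESeq2 called this gene alone (0.49, adjusted p = 0.00544), beside 29 of 20995 genes. Parp9 was the other, with 0.16 ± 0.052 (adjusted p = 0.544). Ifnar1, Ifit2 and Bst2 had log2 fold changes of 0.00 ± 0.037, -0.06 ± 0.061 and 0.01 ± 0.045.

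**Figure D5:**
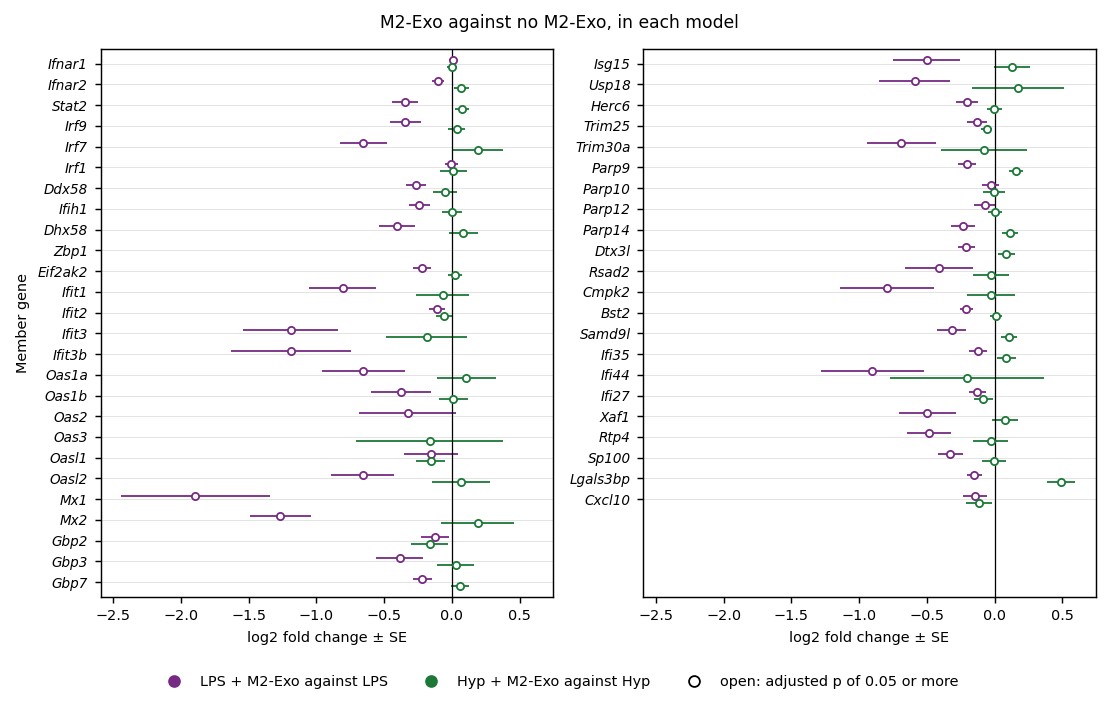
Log2 fold change with its standard error (horizontal axis) of M2-Exo in LPS (LPS + M2-Exo against LPS) and in hyperoxia (Hyp + M2-Exo against Hyp) for each tested interferon-stimulated gene (vertical axis), with open points where the adjusted p was 0.05 or more. In LPS 45 of 46 genes lie left of 0, in hyperoxia 18 of 44, and 0 passed the adjusted p of 0.05 by edgeR in either.

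Whether the M2-Exo effect differed between the injuries was tested as an interaction over all 12 libraries. By edgeR 0 of 47 members passed, where 0.0352% of 14187 genes were called. DESeq2 called 2 members, Lgals3bp (-0.65, adjusted p = 0.000502) and Parp9 (-0.38, adjusted p = 0.0264), beside 78 of 21831 genes. At an unadjusted p under 0.05 there were 17 members (36.2%), against 9.78% of all genes in either direction and 4.84% in this one, each with a more negative effect in LPS. The difference was below 0 for 46 of 47 members (50.4% of all genes) with a median of -0.38, and for 42 of 47 with a median of -0.22 without the first LPS library, when 14 members had an unadjusted p under 0.05, beside 1181 of 14480 genes. Lgals3bp had the lowest adjusted p by edgeR (log2 fold change -0.65 ± 0.13 (SE), adjusted p = 0.185), and without the first Hyp + M2-Exo library it passed (-0.51, adjusted p = 0.0390). LPS + M2-Exo against LPS shares its LPS libraries with LPS against Hyp, and its M2-Exo libraries with the other contrast of the injuries, so the values of a gene in these comparisons are not independent.

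Genes around the programme were also read. Of 21 interferon genes, 15 were at 0 in every library and 0 could be tested. Their summed counts were 0 to 4 in LPS, 0 to 2 in LPS + M2-Exo, 11 to 16 in Hyp and 10 to 21 in Hyp + M2-Exo, mostly from Ifnab and Ifnz. Ifnab had 3 to 12 counts per hyperoxia library and 0 with LPS, and Ifnz 4 to 9 and 0 to 3. The interferon beta gene Ifnb1 had a single count, in the first LPS library. Of 16 other receptor and JAK-STAT genes 10 were higher in LPS than in Hyp, among them Irf8 (2.14), Jak2 (0.94) and Ifngr2 (0.91), and 2 were lower. Of 18 genes of the sensing pathways upstream of interferon 10 were higher and 3 lower. The higher included Tlr9 (2.34), Ticam2 (1.84), Irf5 (1.68) and Tmem173 (1.62), the gene of STING. Ly96 was among the lower, with 26, 42 and 26 counts in LPS and 72, 90 and 77 in Hyp. Tlr4, the gene of Toll-like receptor 4, was low and uneven. It had 62, 65 and 63 counts in LPS, 11, 9 and 74 in LPS + M2-Exo and 106, 14 and 87 in Hyp. With 75.8% of all genes called in this contrast, the shares in either direction together lie near the background and are no result about either list. By direction, 37.8% of all genes were higher and 38% lower. The median log2 fold changes of the 2 lists were 0.56 and 0.51, beside -0.0091 for all genes tested.

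Among 66 further interferon-stimulated genes tested, 49 were higher in LPS than in Hyp and 7 lower, beside 37.8% and 38% of all genes, with a median of 1.06. Iigp1, an immunity-related GTPase, rose by 4.05 on the log2 scale, and the guanylate-binding genes Gbp11 and Gbp8, with 41 to 50 and 15 to 22 counts in the LPS libraries, were at 0 in all 3 Hyp libraries. Gbp11, Gbp8, Tgtp2, Tnfsf10 and Ifi27l2a were among those that passed the low-count filter through their LPS libraries. Such genes had to differ to be tested. In LPS + M2-Exo against LPS 57 of the 66 were below 0, 23 had an unadjusted p under 0.05 and 0 passed by edgeR, with a median of -0.19. Without the first LPS library 50 of 67 were below 0, with a median of -0.11. The NF-kB list, 18 inflammatory targets of LPS, had 11 higher genes in LPS against Hyp, among them Saa3 (4.34) and Lcn2 (3.36), and 5 lower. Ccl20 went the other way, with 3.73, 5.44 and 3.53 CPM in LPS and 30.2, 31.8 and 27.6 in Hyp. So did Il6, with 8.45, 6.15 and 7.82 CPM in LPS and 13.75, 14.9 and 16.2 in Hyp. Cxcl2, with 0, 2 and 8 counts in Hyp, Cxcl5, with 3, 1 and 0, and Il1b, with 7, 8 and 11, passed the low-count filter through their LPS libraries. In LPS + M2-Exo against LPS 10 of the 18 were below 0 with a median of -0.01, and 2 had an unadjusted p under 0.05. Of 12 tested epithelial markers 10 were higher and 2 lower in LPS, of 8 fibroblast and endothelial markers 4 and 2, and of 9 lymphocyte markers 1 was tested, Cd79a, and was lower. The fibroblast marker Dcn had 790, 780 and 807 CPM in LPS and 337, 320 and 347 in Hyp. All 17 epithelial markers together had 683 to 730 and 440 to 465 CPM in these groups. Pdgfra had 22.3, 21.2 and 23.2 CPM in LPS and 0.914, 0.927 and 1.21 in Hyp. With most genes of the table called in this contrast, the counts of these marker lists and of the NF-kB list in either direction together are no result about them.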

How the data were processed

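RNA-seq libraries of MLE-12 cells (12, poly(A) TruSeq, NovaSeq) were read from 1 table in which the authors deposited raw counts per gene and FPKM values side by side. Per the submitters' processing notes, HISAT2 2.0.4, StringTie 1.3.0 and edgeR were used with GRCm38. The program and strand setting that gave the counts are not given in the sources used here. The deposited FPKM values served to compare levels between genes and as an alternative, and the deposited counts served all main tests.

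Counts were fitted in R 4.3.3 with edgeR 4.0.16 (filterByExpr, TMM, quasi-likelihood test, Benjamini-Hochberg over all genes tested), with the 6 libraries of each of 4 pairs of groups and with all 12 for the interaction, and calls were made at an adjusted p under 0.05. CPM in the text are TMM-scaled over 12 libraries. The fits were tested on simulated data. Alternatives were RLE size factors, library size alone, no filter, all 12 libraries, a replicate block, leaving out each library, DESeq2 1.42.0, and limma 3.58.1 on log2(FPKM + 1). Same-numbered libraries correlated at -0.021 to 0.047 after removal of group means, so the numbers were not taken as pairs.

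The members and all gene lists were chosen with earlier results of these data known. Values in every library are given for the 12 members with the smallest adjusted p of the 46 that passed in any comparison, the highest member per length of each role, Ifit3, Ifit3b and both receptor subunits. Isg15, Ifit1, Ifi44, Irf7, Mx2, Herc6, Oas1b, Rsad2 and the low genes given as counts were added after their values were seen. Genes of other lists are named where they pass (up to 4 per list, by size) or define a cell type. Tlr4, Ly96, Ccl20, Il6 and Il1b were added after their values were seen. Of the members, 16 overlap another gene, 12 of them on the opposite strand, and 7 share at least 10% of their 50-base stretches with other genes, among them Gbp7, Rtp4, Herc6 and Ifi35. Promoter windows are RefSeq (GRCm38.p6), and for 12 members none was at hand. Python 3.11.15 was used for tables and figures.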

Additional observations from a re-analysis of the deposited data

How the results depend on the processing

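Leaving out 1 library at a time, 43 to 46 members passed in LPS against Hyp (median 1.10 to 1.24), 38 to 40 in LPS + M2-Exo against Hyp + M2-Exo (0.75 to 0.83), 0 in LPS + M2-Exo against LPS (-0.38 to -0.17), 0 in Hyp + M2-Exo against Hyp (0.013 to 0.046) and 0 to 1 in the interaction. The medians were 0.68 and 0.40 by limma for the contrasts of LPS with hyperoxia, without and with M2-Exo, on a scale that shrinks low genes, and 0.69 by library size alone for the latter. DESeq2 called 4 members in LPS + M2-Exo against LPS, 1 in Hyp + M2-Exo against Hyp and 2 in the interaction. Single genes whose sign turned when a library was left out were Oas1a (-0.20 to 0.45) and Mx2 (-0.068 to 0.20) in LPS + M2-Exo against Hyp + M2-Exo, Irf1 (-0.031 to 0.023), Oas2 (-0.60 to 0.068), Oasl1 (-0.28 to 0.11) and Parp12 (-0.14 to 0.016) in LPS + M2-Exo against LPS, and Ifi44 (-1.10 to 0.31) in the interaction. Single genes were recomputed in this way for all members tested in the other comparisons, but for only 2 members in Hyp + M2-Exo against Hyp and 6 in the interaction, where the sign turned for 11 of all 47 members in at least 1 of these settings. The cause was not tested. Over all genes, calls in LPS + M2-Exo against LPS were 25 by edgeR, 133 by DESeq2, 12 with all libraries in the fit and 6 with the replicate block, in Hyp + M2-Exo against Hyp 14, 29, 2 and 8, and in the interaction 5, 78 by DESeq2, 13 without the filter, 3 with the block and 34 without the first Hyp + M2-Exo library. With the replicate block 43, 39, 0, 0 and 0 members passed, in the order of the first sentence. Library size alone moved the median of all genes to -0.10 in LPS against Hyp. Low counts limit Zbp1, Mx1, Oas3, Oas2 and Ifit3b.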
